A study of Mus musculus with 15 samples.

Results

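The comparison described here sets primary lung fibroblasts without the kinase Atm against cells with it, in early culture. Its members are the 6 libraries labelled passage 2 without irradiation, 3 from Atm-/- and 3 from Atm+/+ cells, out of 15 libraries in the series. The other 9 are 3 Atm+/+ and 3 Atm-/- libraries at passage 8 and 3 Atm+/+ libraries labelled passage 2 harvested 10 days after a dose of 10 Gy of X-rays. The cells came from C57BL/6 mice, with 3 fibroblast strains per genotype, and all groups were grown in serum-containing medium at 3% oxygen. Neither the age and sex of the mice nor the part of the Atm gene that the knockout removes is given in the labels, and each library stands for 1 strain, so replicates differ by strain as well as by handling.

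ATM is a large serine/threonine kinase that is activated at DNA double-strand breaks and signals to p53 and to the checkpoint kinases. Its loss causes ataxia telangiectasia in people. Cells that sense nucleic acid in the cytosol make type I interferon, which binds its receptor on the same and neighbouring cells. The receptor's kinases Jak1 and Tyk2 then activate Stat2, which joins Irf9 in a complex that binds a short DNA element, the interferon-stimulated response element (ISRE), in front of interferon-stimulated genes.

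RNA was counted per gene. Library totals were 33.0, 34.2 and 23.6 M counts in Atm+/+ replicates 1 to 3 and 34.8, 36.1 and 34.4 M counts in Atm-/- replicates 1 to 3, and values below are always in this order. Levels are counts per M counts after scaling by the trimmed mean of M values (CPM). Differences are log2 fold changes of Atm-/- over Atm+/+ cells with their standard error (SE). A gene is called when its p-value in the edgeR quasi-likelihood test, adjusted by Benjamini and Hochberg over all 18167 genes tested, lies under 0.05.

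Atm+/+ replicate 3 stood apart. It held reads for 17526 genes against 21561 to 23188 in the other 5 libraries, and 2089 of the tested genes had no read in it, against 39 to 253. Its log2 CPM correlated at 0.935 with Atm+/+ replicate 1 and at 0.903 with replicate 2, while the Atm-/- libraries correlated with each other at 0.987 to 0.988. Atm-/- replicate 3 was the only one of the 6 with Xist, the RNA of the inactive X chromosome, at 139.5 CPM, and it had no reads of the Y-linked genes Ddx3y, Kdm5d and Uty, which the other Atm-/- libraries had. Values without Atm+/+ replicate 3 stand beside many, though not all, of the results that depend on it. Those without Atm-/- replicate 3 stand with the counts of all genes, the lists and the lost calls. The 12 fibroblast markers, Col1a1, Pdgfra, Thy1 and others, summed to between 16557 and 22555 CPM in the 6 libraries and 0 of the 12 were called or at 0 in all 6. Markers of macrophages and endothelial cells were present at lower levels and are given beside the results that they move with.

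Genes higher without Atm at passage 2 included many interferon-stimulated genes and some smooth muscle contractile genes, and among the genes that were lower were Mmp9, Dpt and Rspo1. Of 18167 genes 176 were called (0.969%), 114 of them higher without Atm (0.628%) and 62 lower (0.341%). At least a 2-fold difference was seen for 90 of the higher and 49 of the lower genes. The 3 values of one genotype lay outside the 3 of the other for all 176, against 25.8% of all genes tested. Of the 114 higher genes 52 belonged to 6 lists of the interferon pathway and 62 did not. Without Atm+/+ replicate 3 the counts were 98 higher and 27 lower, and 48 higher genes of the interferon lists. Without Atm-/- replicate 3, the library with Xist, they were 63 higher and 12 lower, and 39 of the interferon lists. In that fit 5 of 18 signalling genes, 6 of 22 sensing genes, 19 of 58 antiviral effectors, 7 of 18 GTPases and 2 of 23 genes of MHC class I presentation were higher, as were 2 of 28 contractile genes and 2 of 22 YAP and TAZ targets. In the same fit 1 of 41 matrix genes outside the collagens was lower, and 0 of 19 complement genes and 0 of 25 macrophage markers were called, at medians of -0.75 and -1.01. Leaving out 1 library at a time gave between 61 calls (without Atm-/- replicate 1 or 2) and 1787 (without Atm+/+ replicate 2). The number of calls thus rested on single libraries. All 176 genes kept their direction in each of the 6 fits that left out 1 of the compared libraries. As their genotypes did not overlap, leaving out 1 library could hardly turn a direction, so this is no measure of stability. A call was kept in all 6 of those fits by 28 of the 52 interferon genes, by 14 of the 62 other higher genes and by 6 of the 62 lower genes.

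**Figure D1:**
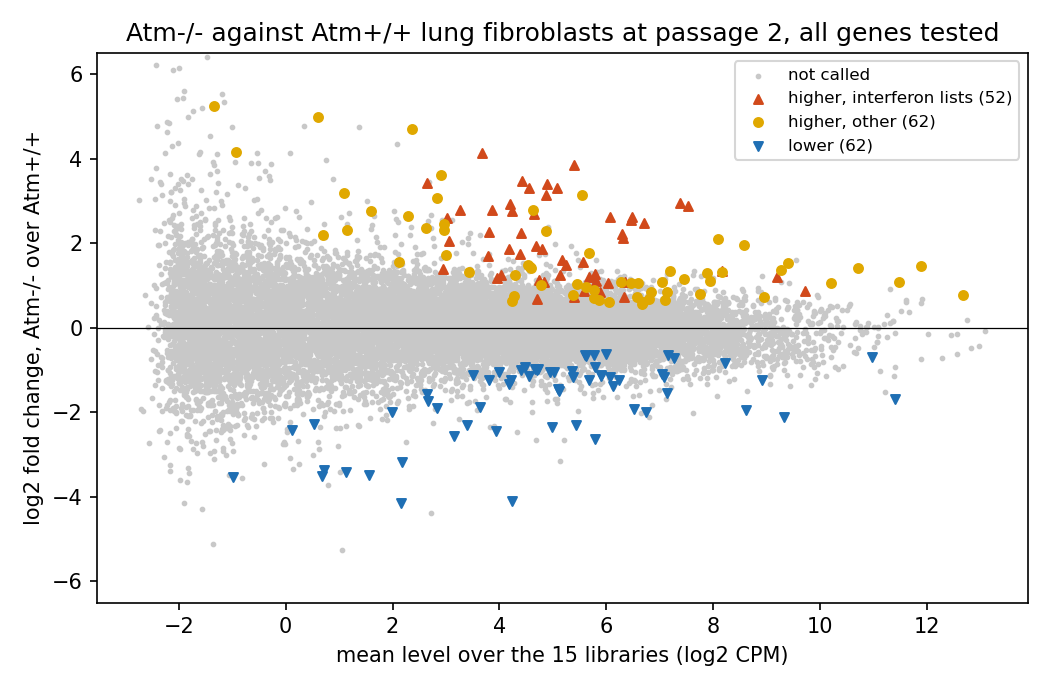
Log2 fold change of Atm-/- over Atm+/+ cells at passage 2 (vertical axis) against the mean level over the 15 libraries in log2 CPM (horizontal axis), 1 point per gene tested. Triangles pointing up are the 52 called genes of the interferon lists, circles the 62 other genes called higher and triangles pointing down the 62 genes called lower, and grey points were not called.

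No interferon or receptor gene was called. Ifnb1, the interferon that fibroblasts make, had 0 counts in each Atm+/+ library and 2, 4 and 2 counts in the Atm-/- libraries. That is 8 counts in all against 0, where a count of 0 allows up to 3, and the gene was too low to be tested. Ifnab had 3 counts in Atm-/- replicate 2 and none in the other 5 libraries, and 18 of the 27 ligand and receptor genes, most Ifna genes, Ifng, Ifnl2 and Ifnl3 among them, had no count in any of the 6.

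The receptors were expressed in both genotypes, and none of the 7 tested members of this list was called. Ifnar1, a chain of the type I receptor, was at 114, 115 and 92.9 CPM in Atm+/+ and 96.8, 104 and 101 CPM in Atm-/- cells, and its log2 fold change was -0.09 ± 0.15 (SE, adjusted p by edgeR 0.752). For Ifnar2, the other chain, the difference was -0.02 ± 0.28 (SE), for Ifngr1 and Ifngr2 of the interferon gamma receptor -0.02 and 0.15, for Il10rb 0.14 and for the low Ifnlr1 0.47. Ifnz, an interferon zeta gene at under 1 CPM in every library, was at -0.60.

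Signalling genes downstream of the receptor were split. Of the 18 tested members 5 rose, Usp18, Irf7, Irf9 and Stat2 among them, and 0 fell, with a median log2 fold change of 0.19 against 0.04 over all genes tested. Usp18, a protease that removes Isg15 from proteins and damps the receptor, stood at 3.63, 4.36 and 6.97 CPM in Atm+/+ and 48, 58.3 and 41 CPM in Atm-/- cells. All 3 Atm-/- values lay far above the highest Atm+/+ value, and the log2 fold change was 3.31 ± 0.27 (SE, adjusted p by edgeR 5.2e-05).

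Irf7, the factor that amplifies interferon production, was measured at 27.2, 22.6 and 26.8 CPM in Atm+/+ and 131, 205 and 116 CPM in Atm-/- cells and rose by 2.56 ± 0.26 (SE, adjusted p by edgeR 0.000331). The members of the ISRE-binding complex rose less. Irf9 was at 31, 31 and 36.2 CPM in Atm+/+ and 67.2, 80.5 and 62.6 CPM in Atm-/- cells, a log2 fold change of 1.10 ± 0.14 (SE, adjusted p by edgeR 0.00148). Stat2 rose by 1.08 ± 0.17 (SE, adjusted p by edgeR 0.00764), without overlap between the genotypes. The number of fits, of the 15 that leave out 1 library each, in which a called gene lost its call is given below where it is above 0.

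The receptor kinases and the other factors did not pass. Jak1 had a log2 fold change of 0.45, Jak2 of 0.22 and Tyk2 of -0.14. The factors Irf1, Irf2, Irf3, Irf5 and Irf8 lay at 0.12, 0.31, -0.26, 0.16 and -0.92, and the kinases Tbk1 and Ikbke, which act between sensors and Irf3, at 0.42 and -0.85. The feedback inhibitors Socs1 and Socs3 were at -0.67 and -0.50, with all 3 Atm-/- values under the 3 Atm+/+ values, and Pias1 at -0.19. Without Atm+/+ replicate 3 Jak1, Irf2, Tbk1 and Ikbke had smaller differences, at 0.21, 0.01, 0.12 and -0.42. In that fit Irf5 was at 0.30 and Irf8 at -0.96, and none of these was called.

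Among 22 tested genes of nucleic acid sensing 8 rose and 1 fell, with a median of 0.69. Zbp1, which senses left-handed (Z-form) nucleic acid, was at 31.2, 24.2 and 23.7 CPM in Atm+/+ and 111, 143 and 93 CPM in Atm-/- cells, a log2 fold change of 2.13 ± 0.24 (SE, adjusted p by edgeR 0.000761). Ddx58, which encodes the RNA sensor RIG-I, was at 29, 31 and 25.5 CPM in Atm+/+ and 57.7, 77.8 and 62.2 CPM in Atm-/- cells and rose by 1.21 ± 0.17 (SE, adjusted p by edgeR 0.00366). The p200 family members Ifi204, Ifi205 and Ifi203, which bind DNA, rose by 2.23, 1.28 and 1.69, each without overlap between genotypes. The 1 gene that fell was Enpp1, which degrades extracellular cGAMP, the messenger of the DNA sensor cGAS, and ATP. It was at 27.2, 22.6 and 35.8 CPM in Atm+/+ and 10.5, 13.1 and 12.7 CPM in Atm-/- cells, a log2 fold change of -1.24 ± 0.19 (SE, adjusted p by edgeR 0.00750), and its call was lost without Atm-/- replicate 1 at an adjusted p of 0.0601 by edgeR.

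Antiviral effectors made up the largest group, with 25 of 58 tested members higher, 0 lower and a median of 1.35. All 3 Atm-/- values exceeded the 3 Atm+/+ values for 45 of the 58, against 13.7% of all genes tested. Isg15, a ubiquitin-like protein that is joined to other proteins in infected cells (chromosome 4, 156199424 to 156200818, minus strand, GRCm38), had 45.3, 40.1 and 35.5 CPM in Atm+/+ and 284, 348 and 251 CPM in Atm-/- cells. Its log2 fold change was 2.87 ± 0.24 (SE, adjusted p by edgeR 5.2e-05).

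Oas2 and Oas1a make 2-5A, the activator of RNase L. Oas2 was at 1.09, 0.329 and 1.06 CPM in Atm+/+ and 17.9, 15.9 and 8.73 CPM in Atm-/- cells, the largest difference among them at 4.13 ± 0.45 (SE, adjusted p by edgeR 0.000574). Oas1a rose by 2.76 ± 0.25 (SE, adjusted p by edgeR 0.000133). Oasl2, a relative of these enzymes named here after its values were seen, was at 23.8, 19.6 and 13.6 CPM in Atm+/+ and 104, 150.3 and 98.9 CPM in Atm-/- cells.

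Ifit3, which binds viral RNA with its family members, went from 28 ± 5.33 to 215 ± 77.3 CPM (SD, n = 3), with a difference of 2.95 ± 0.29 (SE, adjusted p by edgeR 0.000203). Its close copy Ifit3b rose by 3.84 ± 0.72 (SE, adjusted p by edgeR 0.0210), with only 0.0967 CPM in Atm+/+ replicate 3, and lost its call in 4 of the 15 fits that left out 1 library (values 3.33 to 4.25). Counting can divide reads between near-identical copies, which touches Ifit3 and Ifit3b, Apol9a and Apol9b, Oas1a and its neighbours, and Tgtp1 and Tgtp2. Ifi44, Rtp4 and Xaf1, genes induced by interferon with less defined roles, rose by 3.15 ± 0.23 (SE), 2.70 ± 0.23 (SE) and 1.56 ± 0.15 (SE). Apol9b was at 3.01, 1.48 and 1.5 CPM in Atm+/+ and 24.4, 26.4 and 16.1 CPM in Atm-/- cells and rose by 3.47 ± 0.29 (SE, adjusted p by edgeR 5.2e-05), and Apol9a by 3.31. Bst2, which tethers budding virus to the cell and was named after its values were seen, was already at 291, 197 and 383 CPM in Atm+/+ cells and at 743, 711 and 565 CPM in Atm-/- cells, with its call lost in 9 of 15 such fits.

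Promoter sequences were read for the 6 called interferon genes with the lowest p that have an entry in the RefSeq table (GRCm38.p6), to show where the element bound by the complex of Stat2 and Irf9 lies in them. The core searched was GAAANNGAAA, or TTTCNNTTTC on the other strand, in the 250 bases before the start site, and overlapping matches were counted. Each line gives 120 bases 5′ to 3′ on the gene's strand with the matches in capitals.

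Isg15 (chr4:156200820-156200939, minus strand): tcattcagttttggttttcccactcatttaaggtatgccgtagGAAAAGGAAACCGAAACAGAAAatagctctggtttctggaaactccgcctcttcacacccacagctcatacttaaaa

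Oas1a (chr5:120907526-120907645, minus strand): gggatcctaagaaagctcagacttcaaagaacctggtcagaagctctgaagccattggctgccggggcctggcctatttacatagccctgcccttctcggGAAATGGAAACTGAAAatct

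Apol9b (chr15:77728952-77729071, plus strand): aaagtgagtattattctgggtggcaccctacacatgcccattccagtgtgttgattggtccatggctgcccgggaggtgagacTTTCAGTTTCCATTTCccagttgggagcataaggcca

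Ifit3 (chr19:34583352-34583471, plus strand): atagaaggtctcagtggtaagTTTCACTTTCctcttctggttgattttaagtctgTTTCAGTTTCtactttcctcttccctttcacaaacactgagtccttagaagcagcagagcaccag

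Ifi44 (chr3:151749911-151750030, minus strand): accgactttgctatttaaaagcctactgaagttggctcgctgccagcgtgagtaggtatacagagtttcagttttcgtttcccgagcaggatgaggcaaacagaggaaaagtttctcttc

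Xaf1 (chr11:72301509-72301628, plus strand): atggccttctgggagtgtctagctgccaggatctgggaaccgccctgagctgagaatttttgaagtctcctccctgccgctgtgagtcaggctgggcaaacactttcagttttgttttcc

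Isg15 held 3 overlapping matches, whose first bases lie 66 to 78 bases before its start site. Oas1a held a pair that begins 14 to 20 bases before. Apol9b held 2 on the other strand, beginning 31 to 37 bases before. Ifit3 held 2 that do not overlap, beginning 122 and 156 bases before. No match to these letters lies in the windows of Ifi44 and Xaf1. The core was found in 24 of the 40 called interferon genes with an entry (60% of them), in 16 of 73 genes of the same lists that were not called (21.9%), and in 3.46% of all 27025 genes in the table. Of the 62 other genes called higher 40 had an entry and 2 of these held the core (5%), and of the 62 genes called lower 45 had an entry and 5 held it (11.1%). A match describes the letters and not a bound site.

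Guanylate-binding proteins and immunity-related GTPases, which attack the vacuoles of intracellular parasites and bacteria, had the highest median of the lists, at 1.96. Of the 18 tested 9 rose and 0 fell. Their summed level was 126.5, 151.1 and 73.4 CPM in Atm+/+ and 441.8, 610.8 and 416.1 CPM in Atm-/- libraries. Gvin1, a very large member, was at 7.14, 8.16 and 7.4 CPM in Atm+/+ and 35.4, 38 and 33.1 CPM in Atm-/- cells, and differed by 2.23 ± 0.17 (SE, adjusted p by edgeR 3.9e-05).

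Tgtp1 rose by 3.40 ± 0.35 (SE, adjusted p by edgeR 0.000331) and Gbp3 by 2.93 ± 0.42 (SE, adjusted p by edgeR 0.00419). Irgm1, a regulator of the family, stood at 21.7, 21.7 and 7.21 CPM in Atm+/+ and 88.5, 108 and 86.1 CPM in Atm-/- cells, where Atm+/+ replicate 3 was the lowest. Without that library its log2 fold change was 2.14 (adjusted p by edgeR 0.0131) in place of 2.48. Gbp6 rose by 2.05 and Ifi47 by 1.61, and Ifi47 was not called without Atm+/+ replicate 1 or without Atm-/- replicate 2. Tgtp2, at 0.31, 0.493 and 1.35 CPM in Atm+/+ and 7.42, 9.38 and 5.51 CPM in Atm-/- cells, lost its call in 4 of 15 fits.

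Genes of MHC class I presentation show antigens from inside the cell to T cells. Of 23 tested 5 rose, B2m, H2-T23, H2-Q4, H2-T22 and Tap1, and 0 fell, with a median of 0.47. B2m, the invariant light chain of class I molecules, was at 533, 477 and 482 CPM in Atm+/+ and 957, 948 and 806 CPM in Atm-/- cells, and rose by 0.86 ± 0.16 (SE, adjusted p by edgeR 0.0233). Tap1, which carries peptides into the endoplasmic reticulum, rose by 0.74 ± 0.15 (SE, adjusted p by edgeR 0.0396). H2-Q7, at 0.98 (adjusted p by edgeR 0.0852), did not pass. Without Atm+/+ replicate 3 only Tap1 of the 23 was called, at 0.84 (adjusted p by edgeR 0.0355), and B2m was at 0.86 (adjusted p by edgeR 0.0713). All 5 also lost their call in other fits that left out 1 library, B2m in 4 of 15, H2-T23 in 5, Tap1 and H2-T22 in 10 each and H2-Q4 in 11.

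**Figure D2:**
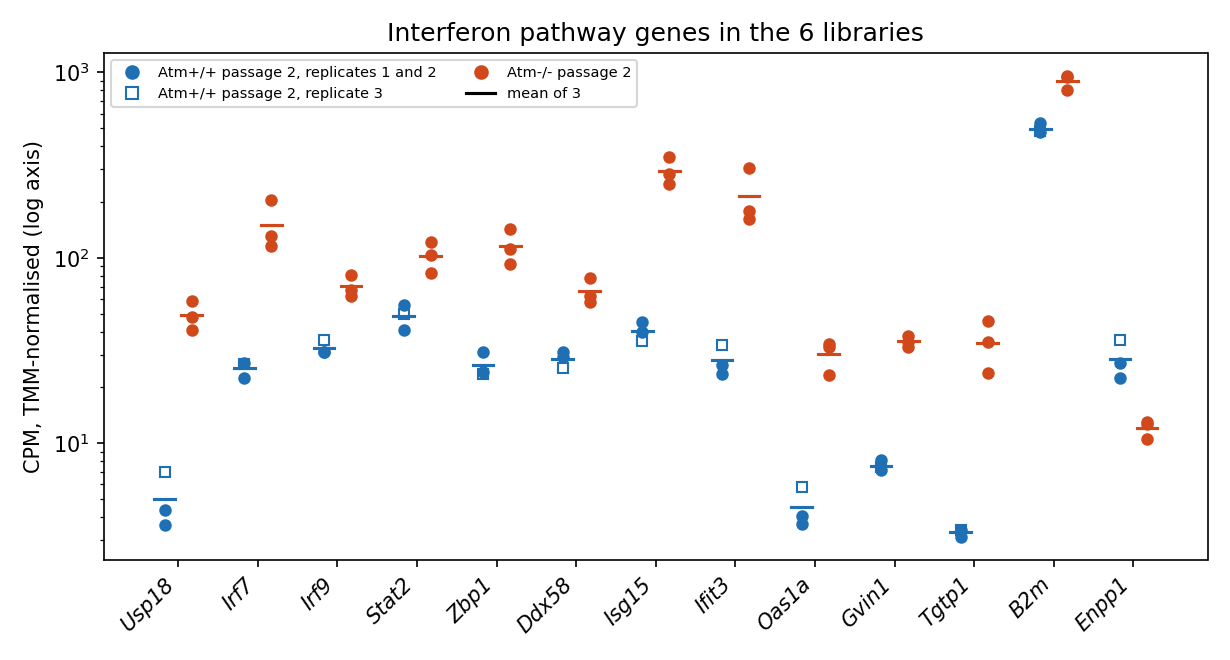
CPM (log axis) of 13 interferon pathway genes in the 6 libraries, with Atm+/+ in blue, Atm+/+ replicate 3 as open squares, Atm-/- in orange and bars at the mean of 3. The genotypes do not overlap for any gene shown, and Enpp1 is the one gene with lower Atm-/- values. The genes shown were called.

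Some smooth muscle contractile genes were higher without Atm. Of 28 tested members 6 rose, Myh11, Lmod1, Actg2, Cnn1, Acta2 and Nexn, and 0 fell, with a median of 0.64, and for 20 the Atm-/- values lay above all Atm+/+ values, against 13.7% of all genes tested. Myh11, the myosin heavy chain of smooth muscle (chromosome 16, 14194535 to 14291372, minus strand), had 94.3, 111 and 67.9 CPM in Atm+/+ and 376, 321 and 363 CPM in Atm-/- cells, a log2 fold change of 1.96 ± 0.23 (SE, adjusted p by edgeR 0.000887). Lmod1, a nucleator of actin filaments, rose by 1.34 ± 0.20 (SE, adjusted p by edgeR 0.00449).

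Acta2, the actin that marks myofibroblasts, was among the most abundant RNAs at 3732, 2836 and 3763 CPM in Atm+/+ and 6276, 4999 and 6329 CPM in Atm-/- cells. Its difference was smaller, 0.77 ± 0.15 (SE, adjusted p by edgeR 0.0317), and its call was lost in 9 of the 15 fits that left out 1 library (values 0.66 to 0.88). The actin Actg2 rose by 1.53 ± 0.26 (SE, adjusted p by edgeR 0.0120) and calponin, Cnn1, by 1.37 ± 0.26 (SE, adjusted p by edgeR 0.0246). Nexn, an actin-binding protein, was at 0.67 (adjusted p by edgeR 0.0434) and lost the call in 11 of 15 fits, Cnn1 in 4 and Actg2 in 2, without Atm-/- replicate 1 or 3. Without Atm+/+ replicate 3, 5 of the 28 were called, at a median of 0.60, and without Atm-/- replicate 3 only Myh11 and Lmod1 were, at the same median. The 12 pericyte markers, which overlap with smooth muscle, had 0 calls and summed to 1946, 1952 and 2018 CPM in Atm+/+ and 1679, 1626 and 1861 CPM in Atm-/- libraries.

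Targets of YAP and TAZ, co-activators that respond to tension and spreading, had 3 of 22 tested members higher, 0 lower and a median of 0.47. Ccn2, a secreted matricellular protein, was at 331, 362 and 278 CPM in Atm+/+ and 993, 659 and 937 CPM in Atm-/- cells, a log2 fold change of 1.41 ± 0.17 (SE, adjusted p by edgeR 0.000820). Ankrd1 rose by 1.31 ± 0.19 (SE, adjusted p by edgeR 0.00366). Thbs1, thrombospondin 1, rose by 1.47 ± 0.29 (SE, adjusted p by edgeR 0.0278) but was not called without Atm+/+ replicate 3, at 1.26 (adjusted p by edgeR 0.0801), and lost its call in 8 of 15 fits. F3, Crim1 and Lats2 lay at 1.61, 0.40 and 0.74 and did not pass, although no Atm-/- value overlapped the Atm+/+ values.

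In the TGF-beta list 1 of 24 tested genes fell. Ltbp4, which holds latent TGF-beta in the matrix, was at 161, 151 and 165 CPM in Atm+/+ and 60.4, 68.4 and 89.4 CPM in Atm-/- cells, a difference of -1.13 ± 0.20 (SE, adjusted p by edgeR 0.0143), and its call was lost without Atm+/+ replicate 1, Atm-/- replicate 1 or Atm-/- replicate 2. Tgfb3 and Ltbp3 were at 0.51 and -0.41 and were not called.

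Few matrix genes were called. Of 31 tested collagens 0 were called, with a median of -0.08, and of 41 other matrix genes 3 fell and 0 rose. Dpt, dermatopontin, which binds decorin and collagen, was at 35, 24.5 and 38.6 CPM in Atm+/+ and 7.67, 5.85 and 4.58 CPM in Atm-/- cells, a log2 fold change of -2.44 ± 0.34 (SE, adjusted p by edgeR 0.00366). Fbln1, fibulin 1, was at 414, 269 and 488 CPM in Atm+/+ and 122, 163 and 118 CPM in Atm-/- cells and fell by 1.54 ± 0.26 (SE, adjusted p by edgeR 0.0120), with its call lost without Atm+/+ replicate 1, Atm-/- replicate 1 or Atm-/- replicate 3. Fmod, fibromodulin, was at 224, 142 and 375 CPM in Atm+/+ and 53.3, 72.5 and 61.8 CPM in Atm-/- cells, a difference of -1.98 ± 0.40 (SE, adjusted p by edgeR 0.0337), which was not called without Atm+/+ replicate 3, at -1.53 (adjusted p by edgeR 0.119), and was lost in 11 of 15 fits. Fbln5, needed for elastic fibres, lay on the other side at 1.34 (adjusted p by edgeR 0.0577) and Ccn4 at 0.62.

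Of 30 metalloproteinases and inhibitors 1 was called. Mmp9, the gelatinase that degrades basement membrane collagen (chromosome 2, 164940780 to 164955850, plus strand), was at 183, 186 and 246 CPM in Atm+/+ and 42.7, 25.7 and 31.3 CPM in Atm-/- cells. All 3 Atm+/+ values lay far above the highest Atm-/- value, and the log2 fold change was -2.62 ± 0.32 (SE, adjusted p by edgeR 0.00107). It was -2.45 (adjusted p by edgeR 0.00332) without Atm+/+ replicate 3. The stromelysin Mmp3 was at -0.93 (adjusted p by edgeR 0.147).

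Complement genes and the secreted protein clusterin were among the genes called lower. C3, the central complement component, was at 1635, 991 and 2350.0 CPM in Atm+/+ and 424, 437 and 296 CPM in Atm-/- cells, a difference of -2.11 ± 0.40 (SE, adjusted p by edgeR 0.0242), and Clu, clusterin, at 1296, 799 and 1539 CPM in Atm+/+ and 265, 382 and 293 CPM in Atm-/- cells, a difference of -1.95 ± 0.35 (SE, adjusted p by edgeR 0.0166). Neither was called without Atm+/+ replicate 3, at -1.74 (adjusted p by edgeR 0.0866) and -1.72 (adjusted p by edgeR 0.0572), and each lost its call in 5 of 15 fits, also without Atm+/+ replicate 1 or any one Atm-/- library. Cd59a, which blocks the membrane attack complex, was at -1.05 and lost its call in 11 of 15 fits. Of the 19 tested complement genes 3 fell and 1 rose, with a median of -0.87, and 13 had all Atm-/- values under the Atm+/+ values, against 12.1% of all genes. The 1 that rose, Masp1, rested on 2, 3 and 0 counts in Atm+/+ and 19, 27 and 13 counts in Atm-/- libraries, so no fold is given, and its call was lost in 10 of 15 fits. Without Atm+/+ replicate 3 none of the 19 was called, at a median of -0.74, and 0 calls for a list say only that no member passed.

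Rspo1, which strengthens Wnt signals, was at 144, 122 and 177 CPM in Atm+/+ and 23.5, 32.4 and 34.1 CPM in Atm-/- cells, a log2 fold change of -2.30 ± 0.40 (SE, adjusted p by edgeR 0.0138), and its call was lost without any one Atm-/- library. Wnt4, a Wnt ligand, fell from 41.1 ± 3.79 to 11.2 ± 1.27 CPM (SD, n = 3), a difference of -1.88 ± 0.36 (SE, adjusted p by edgeR 0.0273), and was at -1.78 (adjusted p by edgeR 0.0772) without Atm+/+ replicate 3, 1 of 7 fits that lost the call. Igfbp4 and Gas6 were named after their values were seen. Igfbp4, which binds insulin-like growth factors, was at 7629.7, 6192 and 8061 CPM in Atm+/+ and 2006, 2484 and 2305 CPM in Atm-/- cells, and Gas6, the ligand of the receptor Axl, at 833, 675 and 846 CPM in Atm+/+ and 355, 377 and 269 CPM in Atm-/- cells. Both were called, at -1.69 (adjusted p by edgeR 0.0396) and -1.23 (adjusted p by edgeR 0.0351), and lost the call in 11 and 10 of 15 fits.

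Genes with other roles were lower too. Fxyd1, a regulator of ion transport, was at 231, 129 and 363 CPM in Atm+/+ and 61.5, 64.3 and 64.2 CPM in Atm-/- cells, a difference of -1.93 ± 0.37 (SE, adjusted p by edgeR 0.0264) that was not called without Atm+/+ replicate 3, at -1.48 (adjusted p by edgeR 0.0928), nor in 5 of 15 fits in all. Itih3, a hyaluronan-binding protein, Chst8, a sulfotransferase, Wfdc21 and Trabd2b, a Wnt-cleaving protease, were called lower at -3.17, -1.89, -2.29 and -1.74. Of these 4, Itih3 lost its call without any one of the Atm-/- libraries, Wfdc21 without Atm-/- replicate 1 or 2, and Chst8 in 11 of 15 fits, while Trabd2b kept it in all 15.

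**Figure D3:**
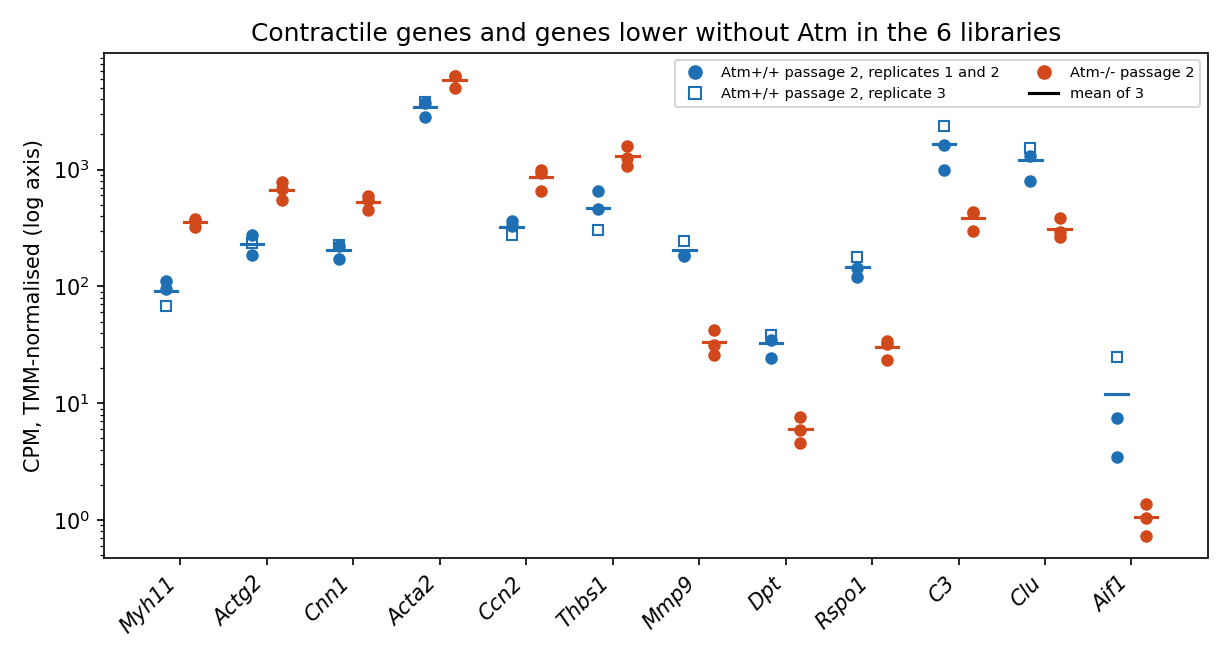
CPM (log axis) of contractile and tension-related genes (Myh11 to Thbs1, higher without Atm) and of genes lower without Atm (Mmp9 to Aif1) in the 6 libraries, drawn as blue circles for Atm+/+ replicates 1 and 2, open squares for replicate 3, orange circles for Atm-/- and bars for the mean of 3. Replicate 3 is the highest Atm+/+ value for each of the lower genes shown and the lowest for Myh11, Ccn2 and Thbs1.

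Chemokines and cytokines moved in both directions. Cxcl10, which is induced by interferon and attracts T cells, was at 0.496, 0.575 and 0 CPM in Atm+/+ and 7.73, 15.1 and 7.07 CPM in Atm-/- cells, a log2 fold change of 4.70 ± 0.84 (SE, adjusted p by edgeR 0.0170). The call was lost without Atm+/+ replicate 1, Atm-/- replicate 1 or Atm-/- replicate 2, and Ccl5, also induced by interferon, was at 1.97 (adjusted p by edgeR 0.0811). Ccl19, a ligand of Ccr7, was at 18.8, 5.23 and 38.4 CPM in Atm+/+ and 1.27, 1.32 and 0.900 CPM in Atm-/- cells, a difference of -4.15 ± 0.67 (SE, adjusted p by edgeR 0.00861). Its Atm+/+ values spread widely between replicates 2 and 3, the call was lost without any one Atm-/- library, and several near-identical Ccl19 copies in the mouse genome can share its reads. Cx3cl1 was at -0.99 (adjusted p by edgeR 0.0427), and lost its call in 11 of 15 fits. Of 24 chemokine genes tested 1 rose and 2 fell.

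Csf1, the growth factor of macrophages, was at 183, 134 and 205 CPM in Atm+/+ and 448, 335 and 301 CPM in Atm-/- cells, a log2 fold change of 1.06 ± 0.21 (SE, adjusted p by edgeR 0.03), and was the 1 called gene of 22 interleukins and colony-stimulating factors. It was not called without Atm+/+ replicate 1, Atm-/- replicate 1 or 2, or Atm+/+ passage 8 replicate 1. Ptgs2 was at 1.10 (adjusted p by edgeR 0.0749). Of 20 NF-kB subunits and feedback genes 0 were called, at a median of -0.16.

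Macrophage markers moved with the lower genes. Their summed level was 3223, 2552 and 4297 CPM in Atm+/+ and 1844, 1244 and 1149 CPM in Atm-/- libraries, and none of the 25 was at 0 in all 6. All Atm-/- values were under all Atm+/+ values for 16 of the 25 and above them for 0, against 12.1% and 13.7% of all genes tested, the median was -1.11, and 1, Aif1, was called. Aif1 was at 7.42, 3.45 and 24.8 CPM in Atm+/+ and 1.38, 0.737 and 1.04 CPM in Atm-/- cells, a difference of -3.49 ± 0.62 (SE, adjusted p by edgeR 0.0164), and its call was lost without any one Atm-/- library. C1qb, C1qc, Tyrobp, Cd14 and Mpeg1 lay at -2.02, -1.64, -1.11, -0.95 and -1.46 and did not pass. C1qb and C1qc are complement genes as well, and Fcrls, at 15.4, 8.47 and 33.6 CPM in Atm+/+ and 4.51, 2.82 and 2.4 CPM in Atm-/- cells and called at -2.56 (adjusted p by edgeR 0.0252), is known from macrophages and microglia. In bulk RNA, fewer macrophages and less RNA per macrophage cannot be told apart, and the part of these cells in the lower genes was not tested. Without Atm+/+ replicate 3, the library with the highest sum, the median of the 25 was -0.90, and Fcrls was at -1.85 (adjusted p by edgeR 0.0681), 1 of 6 fits in which it lost its call.

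Endothelial markers summed to 1386, 1861 and 1124 CPM in Atm+/+ and 851.0, 1027 and 1239 CPM in Atm-/- libraries, with 0 of 22 called and a median of -0.41. Egfl7, abundant among them, was at -0.88 (adjusted p by edgeR 0.294). Of 12 mesothelial markers 1, Rspo1, was called. Epithelial markers summed to at most 45.3 CPM in any library, lymphocyte markers to at most 6.05 CPM, and Cd3d, Cd3e, Cd3g and Ms4a1 were at 0 in all 6.

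**Figure D4:**
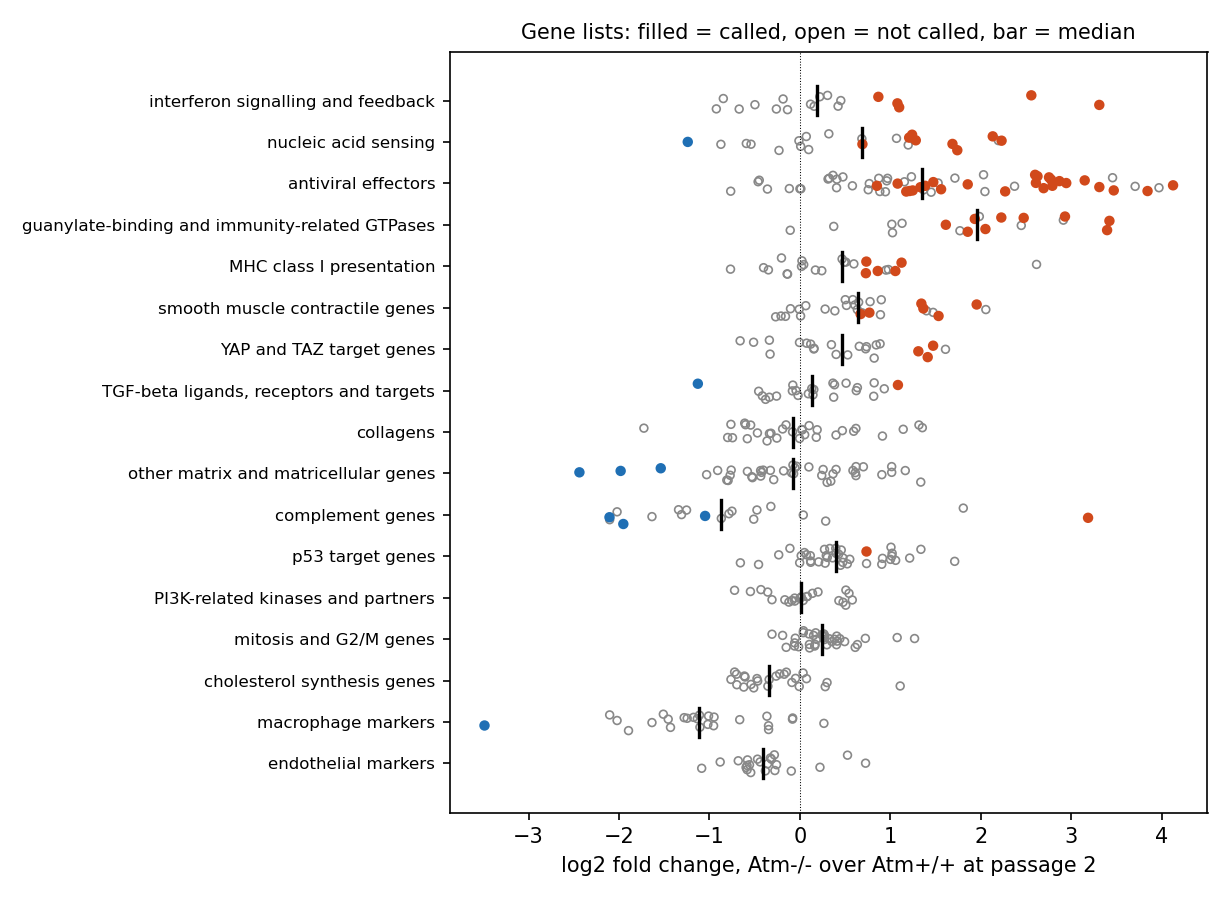
Log2 fold change at passage 2 of each tested member (points) of 17 gene lists, with orange points called higher, blue points called lower, open points not called and black bars at the median of the list. The interferon lists reach medians up to 1.96, while the PI3K-related kinases centre on 0.02 and the macrophage markers on -1.11.

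Among the 15 largest rises picked by the naming rule given below were Mlana, Prl3a1 and Fabp3, outside the interferon lists and at low levels. Mlana, a melanosome protein, was at 0.496, 0.356 and 0 CPM in Atm+/+ and 5.82, 3.00 and 2.54 CPM in Atm-/- cells and rose by 3.61 ± 0.63 (SE, adjusted p by edgeR 0.0143). Its call was lost without Atm-/- replicate 1. Prl3a1, a placental prolactin relative, was at 0.869, 0.219 and 0.629 CPM in Atm+/+ and 6.76, 3.96 and 4.23 CPM in Atm-/- cells. Its log2 fold change was 3.14 ± 0.41 (SE, adjusted p by edgeR 0.00177). Fabp3, a fatty acid carrier, rose by 3.06 ± 0.42 (SE, adjusted p by edgeR 0.00279). Both genes kept the call in all 15 fits that left out 1 library. In a fit of only the 6 compared libraries 53 of the 77 called genes named in the text lost theirs. Prl3a1, Fabp3 and Mlana were among them, as were Oas2, Irf9, Stat2, Ddx58, Gbp3, Ccn2 and Ankrd1. Gzme and Gzmd, neighbouring granzyme genes named after their values were seen, were also higher. Gzme was at 11.5, 11 and 11.1 CPM in Atm+/+ and 67, 45.5 and 52.2 CPM in Atm-/- cells, a log2 fold change of 2.29 ± 0.31 (SE, adjusted p by edgeR 0.00251), and Gzmd at 2.65 (adjusted p by edgeR 0.0396). The call of Gzme was kept in all 15 fits, and that of Gzmd was lost in 11, with 2.36 (adjusted p by edgeR 0.0848) without Atm+/+ replicate 3. In the list of glycolysis and hypoxia genes 1 of 29 rose, Hk2 at 0.72 (adjusted p by edgeR 0.0312), and 1 fell, Pkm at -0.70 (adjusted p by edgeR 0.0444), and these lost the call in 11 and 12 of 15 fits.

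Counts over the Atm gene did not separate the genotypes. Atm (chromosome 9, 53439149 to 53536740, minus strand) was at 1.12, 0.877 and 3.1 CPM in Atm+/+ and 1.61, 0.966 and 1.91 CPM in Atm-/- cells, a difference of -0.17 ± 0.52 (SE, adjusted p by edgeR 0.883), and 0.61 (adjusted p by edgeR 0.835) without Atm+/+ replicate 3, a change of sign. As the removed part is not given, these counts do not check the labels.

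None of the 23 tested PI3K-related kinases and partners was called, at a median of 0.02. Atr and Prkdc, the other kinases of DNA damage, were at 0.58 and 0.08, and Atr had 0.0484 CPM in Atm+/+ replicate 3 against 5.15 or more in the other 5 libraries. Mtor, Smg1 and Trrap, which serve growth, RNA decay and transcription, were at 0.02, 0.54 and 0.00. The break sensors Mre11a, Rad50 and Nbn were at 0.51, 0.14 and 0.51, the checkpoint kinases Chek1 and Chek2 at -0.31 and 0.04 and Trp53 at 0.20. Mdc1, H2afx, Trp53bp1 and Telo2, with -0.06, -0.09, 0.48 and -0.36, act around breaks or in the assembly of these kinases. Atrip, Xrcc5, Xrcc6, Rnf8, Rnf168, Tti1 and Tti2 lay at -0.72, 0.08, -0.06, -0.55, -0.43, 0.43 and -0.12. Several of these values rested on Atm+/+ replicate 3. Without it Atr was at 0.04, Smg1 at 0.23, Nbn at 0.21 and Trp53 at 0.0002. Chek1 and Chek2 changed sign, at 0.45 and -0.26, and Atrip moved further away, to -1.21. None of these was called in that fit.

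Of 39 tested p53 target genes 1 rose, Tap1, which is also a class I gene, and 0 fell. This list leaves out genes that are not reported here. The median was 0.40, and 16 of the 39 had all Atm-/- values above the Atm+/+ values, against 13.7% of all genes. Ccng1 was at 75.3, 83.6 and 46.2 CPM in Atm+/+ and 128, 136 and 122 CPM in Atm-/- cells, a log2 fold change of 0.91 (adjusted p by edgeR 0.0682), and Psrc1, Bbc3 and Zmat3 at 1.01, 0.74 and 0.46. Ptp4a3 lay on the other side, at -0.66. Without Atm+/+ replicate 3, the lowest library for Ccng1, its value was 0.72 (adjusted p by edgeR 0.161) and the median of the list 0.28. The 29 genes of double-strand break repair, 36 of mitosis and G2/M and 40 of DNA replication and S phase had 0 calls by edgeR, with medians of 0.19, 0.25 and 0.11, while 2929 of all genes tested had an unadjusted p under 0.05. Cholesterol synthesis genes had 0 of 25 called at a median of -0.34.

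The same genotypes at passage 8, in 6 other libraries, were set beside these values. With 3 strains per genotype both passages may share strains, which the labels do not say. The fit treated all libraries as unrelated, so agreement between passages need not be an independent repeat. At passage 8, 9.32% of all genes were called, 5.03% higher and 4.29% lower. Of the 52 interferon genes higher at passage 2, 37 were higher at passage 8, 0 lower and 15 not called. Of the 62 other higher genes 18 were higher, 10 lower and 34 not called, and of the 62 lower genes 22 were lower, 39 not called and 1, Crybb3, higher, whose call at passage 2 was lost in 11 of 15 fits. Oas2 was at 4.13 at passage 2 and 4.19 at passage 8, Usp18 at 3.31 and 2.56, and Xaf1 at 1.56 and 1.72. The GTPase list had 3 of 18 called at passage 8 and a median of 0.66. Gvin1 had 0.98 there, and the difference between passages, tested in the same fit, was -1.25 ± 0.23 (SE, adjusted p by edgeR 0.0156).

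Contractile genes had the opposite sign at passage 8. Of the 10 genes higher at passage 2 and lower at passage 8, 9 belonged to the contractile, YAP and TGF-beta lists, and the other was Akap12, a scaffold of protein kinase A, whose call at passage 2 was lost in 5 of 15 fits, each without 1 of the compared libraries. The contractile list had 0 members higher and 14 lower at passage 8, at a median of -0.74. Myh11 was at -2.06 there, a difference between passages of -4.02 ± 0.33 (SE, adjusted p by edgeR 0.000184). For Acta2 the difference was -1.49 ± 0.22 (SE, adjusted p by edgeR 0.00648) and for Ccn2 -1.87 ± 0.23 (SE, adjusted p by edgeR 0.00291). Among the lower genes Mmp9 was at -3.39, Rspo1 at -2.56 and Fbln1 at -1.82 at passage 8, each called lower again, and Dpt at 0.61 was not, with a difference between passages of 3.05 ± 0.47 (SE, adjusted p by edgeR 0.00951). Passage 8 contains a further library with few genes detected, Atm-/- replicate 3, and without it and Atm+/+ passage 2 replicate 3 the number of genes called in the same direction at both passages was 322 in place of 77.

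**Figure D5:**
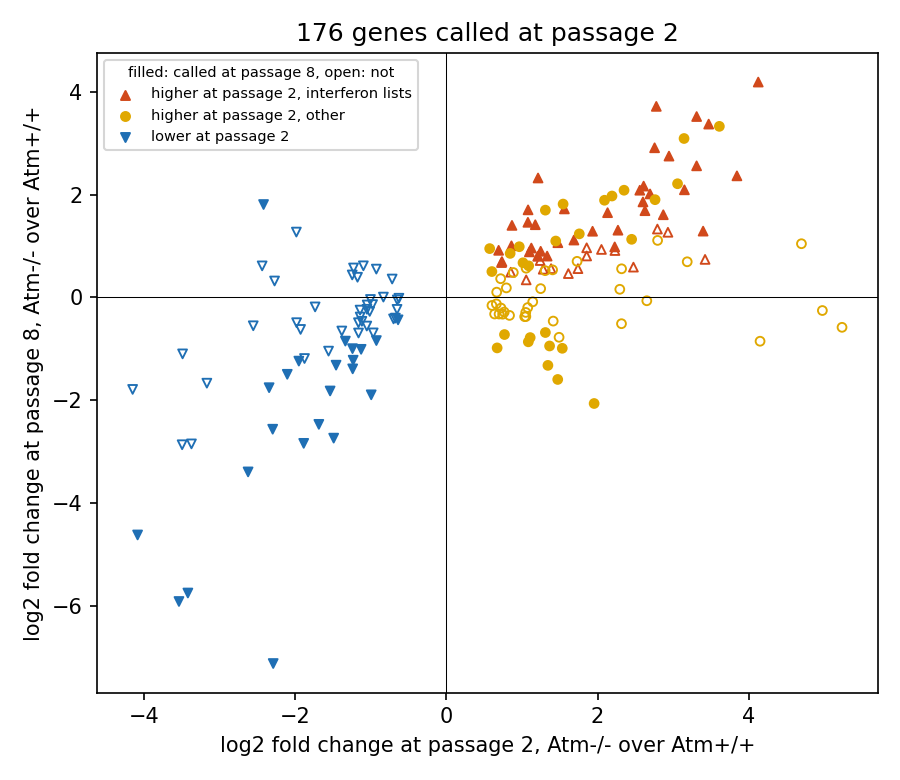
Log2 fold change of Atm-/- over Atm+/+ cells at passage 8 (vertical axis) against passage 2 (horizontal axis) for the 176 genes called at passage 2. Filled symbols were also called at passage 8, triangles pointing up are interferon list genes, circles other higher genes and triangles pointing down lower genes. Interferon genes lie in the upper right, and the filled circles under the horizontal line are the 10 genes with the opposite call.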

How the data were processed

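Total RNA of 15 libraries went into TruSeq RNA libraries, per the labels' protocols. The authors deposited raw gene counts for 48440 genes, made with featureCounts on mm10 with SAMtools 1.3.1 in use, per the submitters' processing notes, and TPM for 48082 genes. The aligner and strand setting were not given in the sources used here. Whether the counts keep reads of overlapping or antisense genes apart is thus not known. Gene symbols were found for 48058 genes, and GENCODE vM21 gave positions and gene types.

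Counts were filtered with filterByExpr by group, scaled by TMM and fitted with robust quasi-likelihood in edgeR 4.0.16 (R 4.3.3), with 1 mean for each of 5 groups of 3. All 15 libraries shared the estimate of spread. Contrasts were Atm-/- minus Atm+/+ at passage 2, at passage 8, and the difference of both, adjusted by Benjamini and Hochberg with a threshold of 0.05. SE is the absolute log2 fold change over the square root of F. The fitting script was tested on simulated counts with set differences in the Atm-/- passage 2 group. No low-complexity library was simulated, so that test does not cover such libraries, and its limit on false calls was not applied to DESeq2. Library totals of 23.6 to 36.1 M counts limit precision for low genes, and 0 counts allows up to 3.

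Members and the 39 gene lists, written from general knowledge, were chosen with earlier results of these data known. Named were the 15 largest differences each way among called genes with a mean log2 CPM of at least 2, no overlap and no predicted symbol, up to 6 members per list by p, all tested members of 3 lists (interferon ligands and receptors, interferon signalling, PI3K-related kinases), Atm, Xist and Y-linked genes. Some single genes that the rule or a list would name are not reported here.

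Alternatives were each library left out, fits of 13, 6 and 5 libraries, DESeq2 1.42.0, its size factors in edgeR, voom with quality weights (limma 3.58.1), no filter, a strict filter (1 CPM in 3 libraries, mean count 50), a replicate block, and limma fits of the deposited TPM after adding 1 or 0.1 and taking log2, for genes reaching 0.5 TPM in 3 libraries. Replicate numbers are strains within a genotype and do not pair the genotypes.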

Additional observations from a re-analysis of the deposited data

Results flagged for a closer look

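For 27 of the named genes the genotype difference at passage 8 differed from that at passage 2 in the edgeR test of the difference itself, adjusted over all genes tested. The values below are passage 8 minus passage 2 on the log2 scale, each passage as Atm-/- over Atm+/+ cells.

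Genes of contraction and tension had negative values, and so did Tgfb3, the matrix gene Ccn4 and the scaffold gene Akap12. They were -4.02 for Myh11, -2.67 for Lmod1, -2.52 for Actg2, -2.31 for Cnn1, -1.49 for Acta2, -1.65 for Nexn, -1.87 for Ccn2, -1.99 for Ankrd1, -3.07 for Thbs1, -3.81 for F3, -0.88 for Crim1, -1.48 for Tgfb3, -1.02 for Ccn4 and -1.89 for Akap12. Of these F3, Crim1, Tgfb3 and Ccn4 were not called at passage 2.

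Interferon pathway genes with a smaller difference at passage 8 were Tgtp1 (-2.11), Isg15 (-1.26) and Gvin1 (-1.25), and Jak2, not called at passage 2, had -1.55. Ptgs2 had -1.90, Hk2 -0.93 and Gzme -2.14. Wfdc21, lower without Atm at both passages, had -4.83. Positive values belonged to Dpt (3.05), Trabd2b (1.55), Mpeg1 (2.62), Ptp4a3 (1.23) and Crybb3 (4.22). The number was 27 without Atm+/+ passage 2 replicate 3 and 41 in the 13 libraries without that library and Atm-/- passage 8 replicate 3. Crybb3, Gzme and Akap12 were chosen after their values were seen.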

How the results depend on the processing

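Directions of called genes were kept, and counts of calls moved. Over 26 alternative settings the 77 called genes named in the text kept their direction. Their genotypes did not overlap, so leaving out 1 library could hardly turn it. Of these genes 20 were called under each setting, and 398 of 2001 values fell short of the threshold. The 65 named genes that were not called gave 135 values past it, 72 that changed sign without passing and 1 that passed with the opposite sign (Chek2, -0.32 by voom with quality weights against 0.04).

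The 176 calls (114 higher, 62 lower, 77 shared with passage 8, 52 in the interferon lists) became 989 (604 higher, 385 lower, 322 shared, and 41 in place of 27 named genes whose difference changed between passages) in 13 libraries, 918 (416, 502 and 257) by DESeq2 and 8667 (4371, 4296 and 904, with 93 interferon genes) by voom with quality weights. In the voom fit Atm+/+ passage 2 replicates 1 to 3 had weights of 4.42, 0.285 and 0.0908, so that group rested mostly on replicate 1. The weights of Atm-/- passage 2 replicates 1 to 3 were 1.07, 2.40 and 1.90. By edgeR the calls were 40 (21 higher, 19 lower, 17 interferon genes) in a fit of the 6 compared libraries. Of the 77 called genes named in the text, 53 lost their call there. The 5 libraries without Atm+/+ replicate 3 gave 396 calls (196 and 200), and neither fit held passage 8. On log2(TPM + 1), with a median over all genes of 0.22, 110 genes were lower, and on log2(TPM + 0.1), with a median of 0.31, 30 were lower and 40 were shared. Leaving out 1 library gave 61 to 1787 calls, 53 to 1034 higher, 7 to 753 lower, 34 to 197 shared with passage 8 and 28 to 70 interferon genes. The cause of these moves was not tested, except that leaving out libraries leaves fewer samples.

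With the replicate number as a block 141 genes were called, 99 higher and 42 lower. Of the 99 higher genes 49 belonged to the interferon lists. Calls shared with passage 8 numbered 67, and 14 of the 77 called genes named lost their call. Once group means were taken off, libraries of the genotypes with the same number correlated at -0.05, 0.39 and -0.11, and replicate 2 alone correlated best with its own number.

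Atm+/+ replicate 3, with no read for 2089 tested genes, and the level of Ifnb1 limit what depth can show, and 3 strains per genotype limit the rest.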
